A study of Mus musculus with 14 samples.

Results

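The genotype by CBE interaction was computed in the brain of mice with and without 4 adaptor proteins of innate immunity. For each gene it is the log2 change with CBE in MyTrMaSt null mice minus the log2 change with CBE in WT mice, so a negative value means that the response was smaller, or more negative, without the adaptors. The quantity needs all 4 groups of the study, and all 14 of its 14 libraries entered the fit, 1 library per mouse. Of the 13866 genes listed, 11852 passed the filter on low counts and were tested. The question was which functions lose, keep or gain their CBE response when the adaptors are missing.

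All mice were 19 days old, and unsorted brain tissue was used. WT mice were C57BL/6JOlaHsd, and MyTrMaSt null mice lack Myd88, Ticam1 (TRIF), Mavs and Tmem173 (STING) in treated and control animals alike. CBE (conduritol B-epoxide) inactivates acid β-glucosidase for good and is used to model the neuronal forms of Gaucher disease. It was injected daily at 100 mg/kg from the second week of life, and control mice received PBS. Of the libraries, 3 came from WT mice with PBS, 3 from WT mice with CBE, 3 from MyTrMaSt mice with PBS and 5 from MyTrMaSt mice with CBE. Since the 4 genes are deleted together, the share of each adaptor cannot be told apart, and a colony difference between the null line and the purchased WT mice cannot be told apart from the genotype.

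The adaptors sit between sensors and transcription factors. MyD88 and TRIF pass on signals of Toll-like receptors, MAVS those of the RNA sensors RIG-I and MDA5, and STING those of the DNA sensor cGAS. Their pathways end in IRF3, IRF7 and NF-κB, and type I interferons made downstream act through a receptor on a complex that holds STAT2 and IRF9. This complex binds the interferon-stimulated response element (ISRE) in the promoters of the antiviral genes. The lysosomal genes answer to another sequence, the CLEAR element bound by TFEB.

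Promoter windows of 4 genes whose response was lost and of 1 whose response was kept are shown because both motifs can be read in them (RefSeq, GRCm38.p6, 5′ to 3′ on the strand of the gene, ending at the base before the annotated start). Capitals mark ISRE cores, GAAANNGAA on either strand with overlapping matches merged, and in Ctsd the CLEAR core TCACGTGA.
Isg15, chr4:156200819-156200938, minus strand: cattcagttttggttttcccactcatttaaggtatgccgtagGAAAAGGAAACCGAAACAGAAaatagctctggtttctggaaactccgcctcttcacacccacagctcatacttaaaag
Ifit1, chr19:34640759-34640888, plus strand: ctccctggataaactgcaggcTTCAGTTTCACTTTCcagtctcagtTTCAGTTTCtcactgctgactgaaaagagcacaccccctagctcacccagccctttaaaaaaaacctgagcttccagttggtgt
Gbp2, chr3:142620563-142620662, plus strand: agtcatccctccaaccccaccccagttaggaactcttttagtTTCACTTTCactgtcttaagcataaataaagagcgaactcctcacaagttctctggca
Irgm1, chr11:48871421-48871520, minus strand: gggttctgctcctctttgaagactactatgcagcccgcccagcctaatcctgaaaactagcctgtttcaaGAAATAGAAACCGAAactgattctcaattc
Ctsd, chr7:142387828-142387957, minus strand: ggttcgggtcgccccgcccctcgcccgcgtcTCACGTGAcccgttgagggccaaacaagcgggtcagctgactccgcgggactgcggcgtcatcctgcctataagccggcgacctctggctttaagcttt
A promoter of 300 bases, from 250 before to 50 after the start, was found by symbol for 9495 of the 11852 tested genes. The ISRE core was in 8.38% of them. It was in 21 of the 44 promoters of genes with a negative interaction (47.7%) and in 2 of the 40 of kept responses (5.0%). The GAS core, TTCNNNGAA on either strand, was in 27.3% of the negative set and 12.5% of the kept set, against 7.86% of all promoters. The CLEAR core was in 2.19% of all promoters in 6 of the 33 lysosomal ones (18.2%), and in 1 of the 40 of kept responses (2.5%), which is that of Ctsd. Such a match describes the letters of the window and is not a site of binding.

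Library totals ran from 1290616 to 3704691 counts, and the median count of a tested gene from 29 to 107. WT + PBS replicate 1, the shallowest, stood apart: the correlation of its log2 levels with the other 2 libraries of its group was 0.870 and 0.871, against 0.976 between them and at least 0.95 in every other pair of a group. The labels give no sex. The 3 Y-linked genes Ddx3y, Eif2s3y and Kdm5d summed to at least 17 counts in each WT + PBS library, in WT + CBE replicate 2 and in MyTrMaSt + CBE replicate 4, where Xist had at most 1 count. In the other libraries they summed to at most 2 counts and Xist had at least 18, with sex uneven over the groups. For this reason the counts below are also given without WT + PBS replicate 1, with the Xist level as a covariate, and with libraries of 1 sex within each genotype (WT with Y-linked counts, MyTrMaSt with Xist counts, 11 libraries, 1 of them WT + CBE). In that last fit every WT library differed in sex from every MyTrMaSt library, so sex and genotype cannot be told apart in it. The part of sex in the results was not tested. Among the deleted genes, Myd88 had 20.7, 27.2 and 27.1 CPM (counts scaled to library size) in WT + CBE and 8.57, 7.51, 5.67, 10.8 and 3.91 in MyTrMaSt + CBE, while Tmem173 was no lower in the null mice (8.73, 6.57 and 6.03 against 6.62, 12.8, 7.7, 9.35 and 9.39). A 3′ tag outside the deleted part of a gene is still counted and then checks nothing. None of the 4 had an interaction past the threshold.

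Of the 11852 genes, 58 (0.489%) differed in their CBE response between genotypes at an edgeR quasi-likelihood adjusted p below 0.05, 49 of them negative (0.413%) and 9 positive (0.0759%). The unadjusted p was below 0.05 for 1485. A DEG is here a gene with a 2-fold or larger change and an adjusted p below 0.05. After CBE there were 759 in WT (6.40%: 616 up, 5.20%, and 143 down, 1.21%), 461 in MyTrMaSt (3.89%: 383 up, 3.23%, and 78 down, 0.658%), and 307 in both. Of 656 DEGs with an upward estimate in both genotypes, 524 had an interaction below 0, against 5934 of all 11852 tested genes. More upward DEGs came from WT than from MyTrMaSt, and choosing genes by a large WT response by itself favours a value below 0. A response was called lost where a DEG of WT had an opposing interaction past the threshold and was no DEG in MyTrMaSt, and reduced where it was still a DEG there. It was called kept where a gene was a DEG in both, in the same direction, and the 95% interval of the interaction lay within 1 log2 unit of 0. This gave 36 lost, 13 reduced, 49 kept (0.413% of the tested genes) and 2 gained responses, while for 813 DEGs the interaction was neither called nor bounded. The plot of one response against the other shows the lost genes near the horizontal axis and the kept genes on the diagonal.

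**Figure D1:**
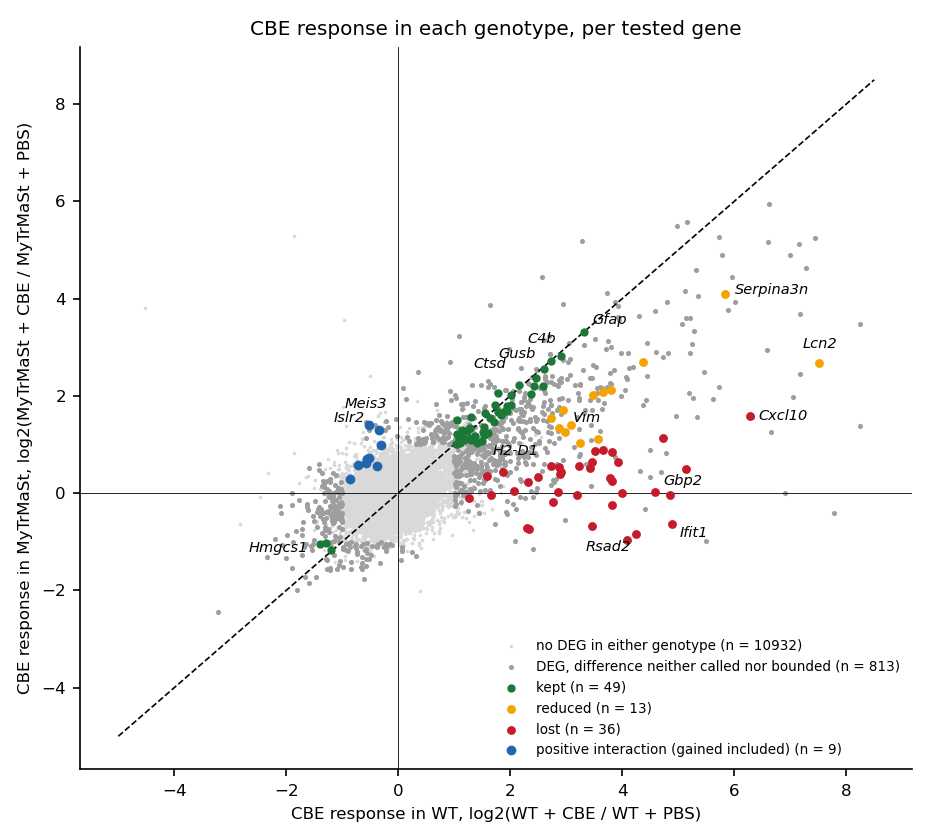
Each point is 1 of the 11852 tested genes, with the CBE response in WT (log2) on the horizontal axis and in MyTrMaSt (log2) on the vertical axis; the dashed line marks equal responses. The 36 lost genes (red) lie to the right and low, the 13 reduced (orange) between these and the diagonal, and the 49 kept (green) on the diagonal; colours follow the tests, so the separation is by definition.

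All 49 negative genes were DEGs upward in WT. Their median response was 3.45 in WT and 0.50 in MyTrMaSt, and on the linear scale the median rise in CPM without the adaptors was 3.39% of that in WT. Leaving out 1 library at a time, 20 of the 49 were called in each of the 14 fits: H2-D1, H2-K1, Tap1 and Tapbp of class I presentation, the factors Irf9 and Stat2, the GTPases Gbp2, Irgm1 and Igtp, the chemokine Ccl5, Spp1, and Bst2, Ifit2, Ifit3b, Ifitm3, Ifi35, Isg20, Lgals3bp, Rtp4 and Shisa5. The total of 58 fell to 37 without WT + CBE replicate 3, to 35 and 24 without MyTrMaSt + PBS replicates 1 and 3, and to 38 without MyTrMaSt + CBE replicate 2 or 3. It rose to 105 without WT + PBS replicate 1, with all 58 among them. With Xist as a covariate 9 genes were called, 8 of the 58 (H2-D1, Bst2, Tap1, Gbp2, Shisa5, Ifit1, Ccl5 and Tapbp) and 1 other. With libraries of 1 sex within each genotype 12 were called, again 8 of the 58 (H2-D1, Bst2, Tap1, Gbp2, Ifit1, Ccl5, Isg20 and Cxcl10). In both, all 58 estimates kept their sign, as the plot of the 3 alternatives shows.

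**Figure D2:**
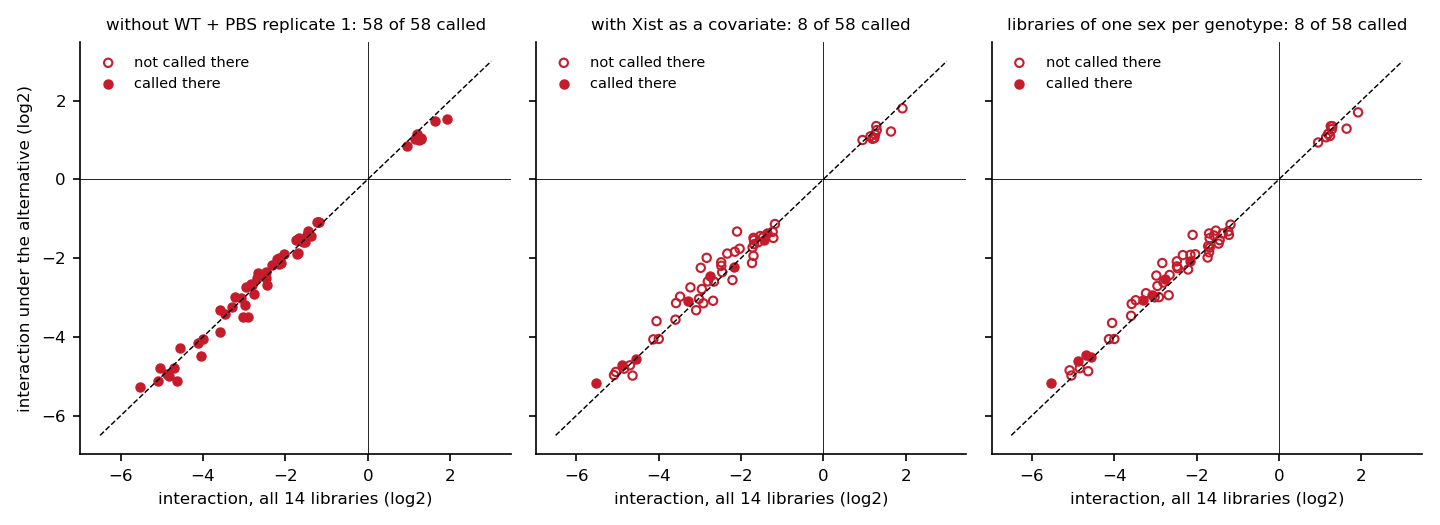
Interaction (log2) of the 58 called genes with all 14 libraries (horizontal) against 3 alternatives (vertical); filled points were called under the alternative, open ones were not, and the dashed line marks equal values. The points lie along the line in all 3 panels, while 58, 8 and 8 of the 58 genes were called.

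Of the sensors, 13 of 16 tested pattern recognition receptors were DEGs in WT and 5 in MyTrMaSt, with median responses of 3.11 and 1.49. A single interaction passed the test, that of Eif2ak2 (PKR), a kinase that is activated by double-stranded RNA and is itself induced by interferon. Eif2ak2 had 3.61, 7.46 and 8.44 CPM in WT + PBS, 42.5, 35.7 and 40.4 CPM in WT + CBE, 5.87, 7.397 and 7.397 CPM in MyTrMaSt + PBS, and 12.5, 6.76, 7.7, 6.4 and 10.2 CPM in MyTrMaSt + CBE. Only the WT + CBE libraries stood above the rest (2.49 ± 0.28 in WT, 0.34 ± 0.27 in MyTrMaSt, interaction -2.15 ± 0.39, adjusted p = 0.0111). The call was lost without MyTrMaSt + PBS replicate 2 or 3. Leaving out 1 library at a time gave 0 to 2 calls among the receptors. In 2 of 24 alternative fits Ifih1 (MDA5) was called. With all 14 libraries its estimate of -3.29 ± 0.98 did not pass by edgeR (adjusted p = 0.161), with at most 24 counts in a library. Here and below, values of this form are log2 estimates ± SE of the edgeR model.

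In the transduction step, 4 of 18 members had a negative interaction, among them the factors Irf7, Irf9 and Stat2, which carry the interferon signal. Irf9, the DNA-binding part of the interferon-activated complex, had 11.7, 22.1 and 19.8 CPM in WT + PBS, 145, 109 and 161 CPM in WT + CBE, 12.4, 9.51 and 14.1 CPM in MyTrMaSt + PBS, and 15.2, 15.4, 17.8, 13.8 and 24.3 CPM in MyTrMaSt + CBE. The 3 WT + CBE libraries were far above all others, and the MyTrMaSt + CBE libraries overlapped those of WT + PBS. Its response was 2.87 ± 0.24 in WT and 0.54 ± 0.24 in MyTrMaSt (interaction -2.33 ± 0.34, adjusted p = 0.00310). Stat2 had 29.8, 19.3 and 19.4 CPM in WT + PBS, 72.7, 54.4 and 80.7 CPM in WT + CBE, 23.8, 21.9 and 26.4 CPM in MyTrMaSt + PBS, and 23.4, 23.3, 23.9, 25.1 and 21.1 CPM in MyTrMaSt + CBE. Its interaction was -1.695 ± 0.27 (adjusted p = 0.00521), with a response of -0.04 ± 0.18 without the adaptors. Irf7, which amplifies interferon production, was already low in the null mice after PBS (1.04, 1.06 and 3.52 CPM against 16.2, 8.57 and 7.17 in WT + PBS), although that difference missed the threshold (edgeR adjusted p = 0.0672). It reached 309, 208 and 255 CPM in WT + CBE and 1.56, 2.63, 3.24, 6.4 and 6.65 in MyTrMaSt + CBE (interaction -3.59 ± 0.66, adjusted p = 0.0317). Irf7 was called in 6 of the 14 leave-one-out fits, and the call was lost without WT + PBS replicate 3, WT + CBE replicates 1 or 3, MyTrMaSt + PBS replicates 1, 2 or 3 or MyTrMaSt + CBE replicates 2 or 3. Exons of Irf7 overlap Phrf1 on the other strand, and exons of Irf9 overlap Rnf31 on the same strand. The list held 2 calls in place of 4 without WT + PBS replicate 3, WT + CBE replicate 1, MyTrMaSt + PBS replicates 1 or 3 or MyTrMaSt + CBE replicates 2 or 3. The median response of the list was 0.77 in WT and 0.09 in MyTrMaSt.

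Among antiviral effectors, 14 of 34 responses were lost. Of the 34, 31 were DEGs upward in WT and 1 in MyTrMaSt. All 34 had an interaction below 0, with a median of -2.78, and 15 passed the test against a background of 0.413%. The median response was 3.43 in WT and 0.32 in MyTrMaSt, where 2 members passed an adjusted p of 0.05 at any fold. Oasl1 had a group at 0 counts in every library, and with it at its bound the median interaction was -2.86. With the Xist covariate 3 members were called and the median was -2.52. With libraries of 1 sex per genotype the same figures were 3 and -2.49.

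Ifit1, which binds viral RNA that lacks the host cap modification, had 0.902, 7.18 and 5.06 CPM in WT + PBS, 173, 135 and 159 CPM in WT + CBE, 1.38, 0.793 and 3.52 CPM in MyTrMaSt + PBS, and 0.779, 0.751, 1.22, 0.492 and 2.35 CPM in MyTrMaSt + CBE. The 3 WT + CBE libraries, replicate 2 with its Y-linked counts included, were far above every other library. The MyTrMaSt + CBE libraries overlapped those of MyTrMaSt + PBS. Its interaction of -5.53 ± 0.74 (adjusted p = 0.00236) was the most negative of the 58, and it was lost without MyTrMaSt + PBS replicate 3. Isg15, a ubiquitin-like protein that is linked to other proteins, had 21.7, 7.74 and 8.86 CPM in WT + PBS, 188, 131 and 152 CPM in WT + CBE, 1.04, 2.64 and 3.17 CPM in MyTrMaSt + PBS, and 2.73, 2.25, 0.405, 0.985 and 3.13 CPM in MyTrMaSt + CBE. Its estimate in the null mice was -0.24 ± 0.57 (interaction -4.05 ± 0.66, adjusted p = 0.00847), with levels below those of WT + PBS in every null library. The call was lost without MyTrMaSt + PBS replicates 2 or 3. Bst2 (tetherin), which holds budding virus at the cell surface, had 25.3, 17.1 and 17.7 CPM in WT + PBS, 265, 215 and 251 CPM in WT + CBE, 5.87, 10.6 and 12.3 CPM in MyTrMaSt + PBS, and 18.7, 16.5, 22.3, 14.8 and 17.2 CPM in MyTrMaSt + CBE. Bst2 rose in both genotypes, by 3.66 ± 0.22 in WT and by 0.90 ± 0.23 in MyTrMaSt (adjusted p = 0.0204 for the latter), and the difference of -2.76 ± 0.32 passed the test (adjusted p = 0.000551). Rsad2 (viperin) had 18.04, 16.9 and 15.1 CPM in WT + CBE and at most 3 counts in any MyTrMaSt + CBE library (interaction -5.08 ± 0.93, adjusted p = 0.00847), and its call was lost without MyTrMaSt + PBS replicates 1 or 3. Lgals3bp was the 1 effector that was reduced and not lost, with 41.7, 43.2, 46.2, 44.8 and 52.5 CPM in MyTrMaSt + CBE, above the 9.67, 11.6 and 9.86 CPM of MyTrMaSt + PBS and below the 458, 375 and 446 CPM of WT + CBE. It rose by 2.12 ± 0.20 without the adaptors and by 3.81 ± 0.19 with them.

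Interferon-inducible GTPases act on the vacuoles of intracellular pathogens. All 10 tested members were DEGs in WT and 1 in MyTrMaSt, the median response was 3.80 and 0.03, and 6 interactions passed the test. Without MyTrMaSt + PBS replicate 2 there were 3. With 2 members (Iigp1 and Gm4841) set at their bound, because a group had no count, the median interaction was -3.56 in place of -2.89. Gbp2 had 0, 3.32 and 4.22 CPM in WT + PBS, 85.8, 66.6 and 68.7 CPM in WT + CBE, 3.11, 2.38 and 3.52 CPM in MyTrMaSt + PBS, and 3.51, 1.502, 2.84, 3.94 and 3.52 CPM in MyTrMaSt + CBE. Its 5 MyTrMaSt + CBE libraries lay within the range of the PBS libraries (0.03 ± 0.42), against 4.59 ± 0.40 in WT, and the interaction was -4.56 ± 0.57 (adjusted p = 0.000909). Irgm1 had 4.51, 19.1 and 14.3 CPM in WT + PBS, 204, 134 and 146 CPM in WT + CBE, 12.8, 9.51 and 18.3 CPM in MyTrMaSt + PBS, and 29.2, 22.2, 19.05, 27.6 and 23.9 CPM in MyTrMaSt + CBE. All its MyTrMaSt + CBE libraries were above those of MyTrMaSt + PBS, yet the change of 0.86 ± 0.29 missed the threshold (adjusted p = 0.0764), and the interaction was -2.65 ± 0.42 (adjusted p = 0.00502). Igtp, whose exons overlap Irgm2 on the same strand, had an interaction of -2.95 ± 0.47 and Gbp3, still a DEG in MyTrMaSt, one of -2.46 ± 0.41. Both Isg15 and the GTPases shown have ISRE cores in the windows above, as do 7 of the 8 GTPase promoters found and 15 of the 27 of the effectors.

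Class I presentation carries peptides from the proteasome to the cell surface. Of 14 members 11 were DEGs in WT and 3 in MyTrMaSt, and 5 had a negative interaction: the heavy chains H2-D1 and H2-K1, the peptide transporter subunit Tap1, the loading factor Tapbp and the immunoproteasome subunit Psmb8. H2-D1, the gene with the lowest p, had 147, 163 and 140.5 CPM in WT + PBS, 1154, 906 and 920.1 CPM in WT + CBE, 106, 100.4 and 104 CPM in MyTrMaSt + PBS, and 138, 147, 142, 172 and 167 CPM in MyTrMaSt + CBE. It rose from the PBS level in both genotypes, by 2.72 ± 0.14 in WT and by 0.56 ± 0.13 in MyTrMaSt (adjusted p = 0.0113 for the latter), and the interaction was -2.16 ± 0.19 (adjusted p = 2.06e-05). H2-K1 had 75.8, 48.6 and 56.95 CPM in WT + PBS, 546, 467 and 386 CPM in WT + CBE, 16.2, 24.04 and 18.3 CPM in MyTrMaSt + PBS, and 47.5, 42.1, 42.1, 44.8 and 59.1 CPM in MyTrMaSt + CBE. It was lower in the null mice after PBS (-1.59 ± 0.21, adjusted p = 0.00280) and was a DEG in both genotypes, with an interaction of -1.72 ± 0.28 (adjusted p = 0.00523). Tap1 went to 111, 86.4 and 96.4 CPM in WT + CBE from 5.41, 8.57 and 4.22, and stood at 7.01, 7.51, 8.51, 7.88 and 14.5 in MyTrMaSt + CBE (interaction -3.29 ± 0.41, adjusted p = 0.000900). Psmb8 had the largest remaining response of the list, 5.18, 3.698 and 5.28 CPM in MyTrMaSt + PBS and 23.4, 16.9, 16.2, 23.6 and 19.6 in MyTrMaSt + CBE. It rose by 2.08 ± 0.23 without and 3.66 ± 0.22 with the adaptors (interaction -1.58 ± 0.31, adjusted p = 0.0302), and the call was lost without WT + PBS replicates 2 or 3, WT + CBE replicates 1 or 3, MyTrMaSt + PBS replicates 1 or 3 or MyTrMaSt + CBE replicates 2 or 3. Reads of closely related class I genes can be split between them, and exons of Tap1 and Psmb9 overlap on opposite strands, while exons of Tapbp overlap Zbtb22 on the same strand. None of 6 class II members had a called interaction.

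Of 13 chemokines, 9 were DEGs upward in WT and 6 in MyTrMaSt, with a median interaction of -1.61. Ccl5 and Cxcl10 lost their response, while Ccl3 and Ccl4, which were chosen after their values were seen, rose in both genotypes. Ccl5, a T cell attractant, had 5.41, 4.697 and 4.22 CPM in WT + PBS, 134, 135 and 139.8 CPM in WT + CBE, 1.38, 0.528 and 1.76 CPM in MyTrMaSt + PBS, and 1.56, 1.13, 0.811, 0 and 1.96 CPM in MyTrMaSt + CBE. Its 5 MyTrMaSt + CBE libraries held 0 to 5 counts each, against 2 to 5 in the MyTrMaSt + PBS libraries, and the interaction was -4.89 ± 0.64 (adjusted p = 0.00310). Cxcl10, a ligand of Cxcr3, had 6.32, 4.14 and 5.91 CPM in WT + PBS, 498, 272 and 454 CPM in WT + CBE, 1.04, 1.06 and 3.87 CPM in MyTrMaSt + PBS, and 7.01, 2.25, 3.24, 11.8 and 5.87 CPM in MyTrMaSt + CBE. Its estimate in MyTrMaSt was 1.59 ± 0.59 (adjusted p = 0.0844) against 6.29 ± 0.45 in WT, the interaction was -4.696 ± 0.74 (edgeR adjusted p = 0.0111), and the call was lost without MyTrMaSt + PBS replicate 3. Without WT + PBS replicate 1, Cxcl10 was a DEG in MyTrMaSt as well and so counted as reduced. Exons of Cxcl10 overlap Art3 on the other strand. Ccl3, a product of microglia, had 0.902, 1.38 and 0.844 CPM in WT + PBS, 70.99, 52.1 and 62.1 CPM in WT + CBE, 1.38, 1.59 and 1.06 CPM in MyTrMaSt + PBS, and 47.1, 52.6, 48.6, 78.8 and 45.01 CPM in MyTrMaSt + CBE. It rose by 5.73 ± 0.49 in WT and 5.27 ± 0.39 in MyTrMaSt, and the 95% interval of the interaction was -1.79 to 0.86, too wide to call the response kept. Ccl4 rose by 4.98 ± 0.52 and 5.501 ± 0.66.

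**Figure D3:**
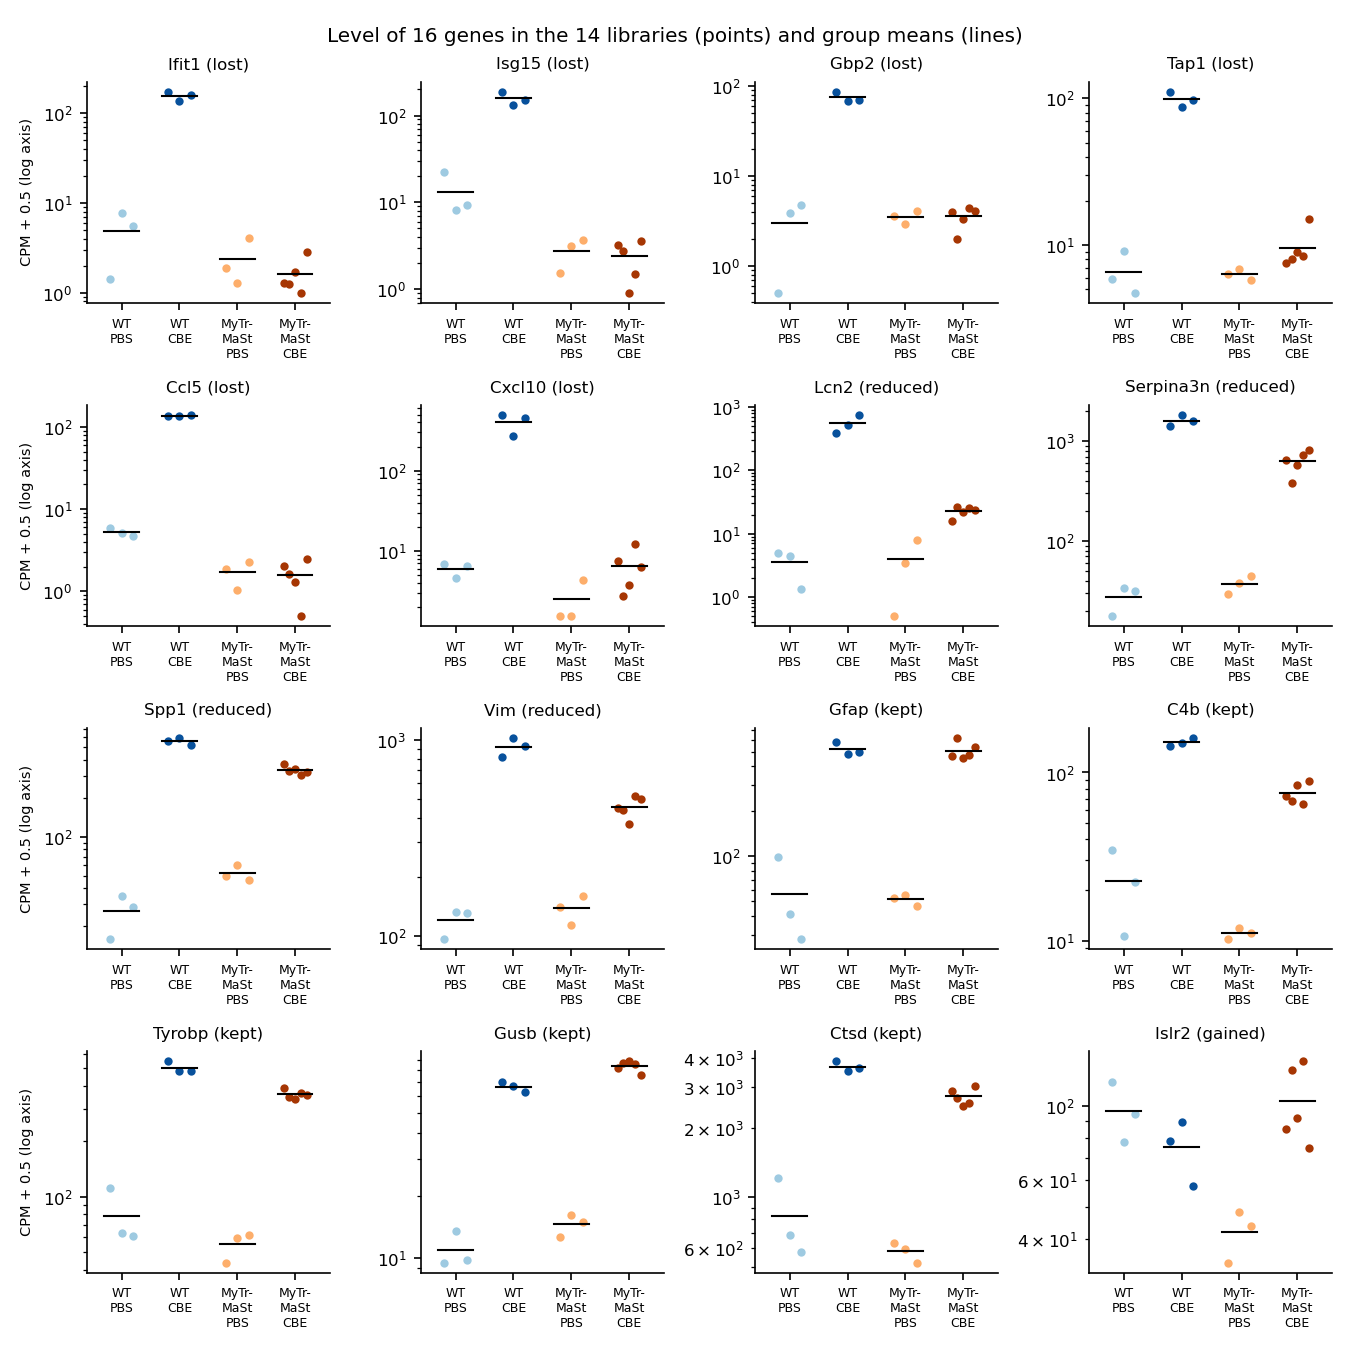
Level of 16 genes in each library, as CPM with 0.5 added on a log axis; points are the 14 libraries, lines the means of the 4 groups. In the 6 lost genes only the WT + CBE points are high, in the 4 reduced and 5 kept genes the MyTrMaSt + CBE points are high as well, and Islr2 is lowest in MyTrMaSt + PBS.

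NF-κB and TNF pathway genes had 13 DEGs in WT and 7 in MyTrMaSt out of 20. By edgeR with all 14 libraries no interaction passed the test, although 17 estimates were below 0 (median -0.93). Without WT + PBS replicate 1 or 2, 1 member was called, and DESeq2 called 2. Nfkbia (IκBα), the inhibitor that NF-κB induces, was kept: it had 109, 107 and 84.8 CPM in WT + PBS, 187, 233 and 205 CPM in WT + CBE, 74.2, 52.6 and 54.2 CPM in MyTrMaSt + PBS, and 98.2, 144, 132, 129 and 101 CPM in MyTrMaSt + CBE. It rose by 1.06 ± 0.19 in WT and by 1.003 ± 0.17 in MyTrMaSt, and the interval of the interaction was -0.58 to 0.47. The libraries of the null mice were below those of WT after PBS and after CBE, and on the linear scale the rise was 56.0% of that in WT. The estimate of Nfkbie was -1.65 ± 0.41 and that of Tnfaip2 -3.29 ± 0.86, neither past the threshold by edgeR with all 14 libraries. Of 24 alternative fits, Nfkbie was called in 4 and Tnfaip2 in 2. Of the IL-6 and STAT3 list, 7 of 12 members were DEGs in WT and 8 in MyTrMaSt, and Lcn2 alone had a called interaction. Leaving out 1 library at a time gave 0 to 2 calls in this list. Its medians were 1.72 in WT and 1.78 in MyTrMaSt, while the median of the members' interactions was -0.56.

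Reactive astrocyte genes responded in both genotypes, 17 of 19 as DEGs in WT and 16 in MyTrMaSt, with median responses of 3.31 and 2.68 (2.55 with 1 member at its bound). Cp was lost, Lcn2, Vim and Serpina3n were reduced, and Gfap was kept. The interaction of Cp was -2.03 ± 0.43 (edgeR adjusted p = 0.0387), and it was called in 4 of the 14 leave-one-out fits. Gfap, the intermediate filament that defines reactive astrocytes, had 98.4, 40.6 and 27.4 CPM in WT + PBS, 579.6, 480.1 and 498 CPM in WT + CBE, 52.5, 54.9 and 46.1 CPM in MyTrMaSt + PBS, and 467, 614, 451, 470.2 and 532 CPM in MyTrMaSt + CBE. The CBE libraries of the 2 genotypes overlapped, the responses were 3.31 ± 0.29 and 3.31 ± 0.25, and the interval of the interaction was -0.82 to 0.80. WT + PBS replicate 1 was the highest of the PBS libraries. Without it the estimate was -0.61, and Gfap no longer counted as kept, since its interval then passed the bound. Vim (vimentin), a filament of reactive astrocytes and other cells, had 95.7, 133 and 130.4 CPM in WT + PBS, 818, 1017 and 929 CPM in WT + CBE, 139, 114 and 160.3 CPM in MyTrMaSt + PBS, and 446, 435, 369, 518 and 499 CPM in MyTrMaSt + CBE. The CBE libraries of the 2 genotypes did not overlap, and the response was 2.93 ± 0.17 in WT and 1.72 ± 0.15 in MyTrMaSt (interaction -1.21 ± 0.23, adjusted p = 0.0199). Lcn2 (lipocalin 2), a secreted iron-siderophore carrier, had 4.51, 3.87 and 0.844 CPM in WT + PBS, 380.3, 519 and 749.6 CPM in WT + CBE, 0, 2.91 and 7.397 CPM in MyTrMaSt + PBS, and 15.2, 25.5, 21.5, 24.6 and 23.1 CPM in MyTrMaSt + CBE. It rose in both genotypes, by 7.52 ± 0.62 and 2.68 ± 0.53, and the interaction of -4.84 ± 0.82 (adjusted p = 0.00847) was the largest among the reduced genes. Serpina3n, a secreted protease inhibitor, reached 1412, 1843 and 1582 CPM in WT + CBE and 649, 383, 575, 726 and 819 in MyTrMaSt + CBE (interaction -1.73 ± 0.35, adjusted p = 0.0272). The call of Lcn2 was lost without MyTrMaSt + PBS replicate 3, that of Vim without WT + CBE replicates 2 or 3 or MyTrMaSt + PBS replicates 1 or 3, and that of Serpina3n without WT + CBE replicates 2 or 3, MyTrMaSt + PBS replicates 2 or 3 or MyTrMaSt + CBE replicate 3. The list held 4 calls, 1 without WT + CBE replicate 2 or 3, 2 without MyTrMaSt + PBS replicate 2 and 0 without MyTrMaSt + PBS replicate 3. With the Xist covariate none of this list was called, with a median interaction of -1.76 against -1.41. The 5 astrocyte markers used to check the tissue summed in WT to 1890 to 2572 CPM after PBS and 2387 to 2642 after CBE. In MyTrMaSt they summed to 2396 to 2795 CPM after PBS and 2888 to 3188 after CBE, with a median interaction of 0.22.

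Disease-associated microglia genes mark the activated state of these cells. Of 24 such genes, 19 were DEGs in WT and 16 in MyTrMaSt, 15 in both. The estimate was above 0 for all 24 in each genotype. Spp1 was reduced, Axl lost, and Tyrobp, Cd63 and Ctsd were kept. Tyrobp, the adaptor through which TREM2 signals, had 111, 63 and 60.3 CPM in WT + PBS, 545, 481 and 484 CPM in WT + CBE, 43.2, 59.2 and 61.6 CPM in MyTrMaSt + PBS, and 392, 347, 338, 366 and 357 CPM in MyTrMaSt + CBE. The responses were 2.72 ± 0.20 and 2.72 ± 0.18, with an interval of the interaction of -0.56 to 0.54. The levels after CBE did not overlap between genotypes, and the linear rise was 71.8% of that in WT. Trem2 itself, chosen after its values were seen, had 74, 43.4 and 39.2 CPM in WT + PBS, 336, 294 and 287 CPM in WT + CBE, 20.03, 19.3 and 22.5 CPM in MyTrMaSt + PBS, and 183, 191, 172, 167 and 203 CPM in MyTrMaSt + CBE. It was lower in the null mice after PBS (-1.29 ± 0.21, adjusted p = 0.0114) and rose by 2.597 ± 0.19 in WT and 3.15 ± 0.18 in MyTrMaSt, a difference that did not pass the test. Spp1 (osteopontin), with exons that overlap Gm42793 on the same strand, had 15.3, 33.99 and 27.8 CPM in WT + PBS, 561, 592 and 527 CPM in WT + CBE, 49.03, 59.97 and 45.8 CPM in MyTrMaSt + PBS, and 372, 326, 341, 304 and 323 CPM in MyTrMaSt + CBE. It rose by 4.37 ± 0.20 and 2.69 ± 0.16, and the interaction was -1.68 ± 0.26 (adjusted p = 0.00371). The PBS libraries of the null mice were above those of WT (0.93 ± 0.20, adjusted p = 0.0686), and the CBE libraries below. Axl, a receptor for the clearance of dying cells, had 27.98, 47.2 and 42.6 CPM in WT + PBS, 128, 128 and 107 CPM in WT + CBE, 54.9, 45.4 and 48.3 CPM in MyTrMaSt + PBS, and 70.9, 57.5, 61.6, 64.5 and 61.1 CPM in MyTrMaSt + CBE. Its interaction of -1.23 ± 0.24 (adjusted p = 0.0218) was lost without WT + CBE replicates 1 or 2, MyTrMaSt + PBS replicates 1 or 3 or MyTrMaSt + CBE replicate 2. The list held 6 calls in place of 2 without WT + PBS replicate 1, and 1 without WT + CBE replicates 1 or 2, MyTrMaSt + PBS replicate 3 or MyTrMaSt + CBE replicate 2.

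The 6 microglial markers summed to 324 to 491 CPM in WT + PBS and to 1494 to 1841 in WT + CBE, and to 282 to 306 in MyTrMaSt + PBS and 798 to 934 in MyTrMaSt + CBE. In these bulk samples more cells of a type and more RNA per cell cannot be told apart. The part of this difference in the interactions of microglial genes was not tested. Of the markers of blood cells, 2 of 6 neutrophil markers were listed, with a sum of at most 5.67 CPM in any library, and 1 of 4 monocyte markers, at 0 in every PBS library and at most 5.16 CPM after CBE. The 3 of 9 lymphocyte markers that were listed summed in WT to 5.25 to 13.5 CPM after PBS and 7.04 to 12.1 after CBE, and in MyTrMaSt to 3.52 to 7.66 after PBS and 4.92 to 8.64 after CBE, overlapping between PBS and CBE in each genotype. The 1 of 5 red blood cell markers listed ran from 10.9 to 24.9 CPM over all libraries. Of 16 homeostatic microglia genes, 10 were DEGs in WT and 8 in MyTrMaSt, all upward, none had a called interaction by edgeR (2 without WT + PBS replicate 1, 1 without MyTrMaSt + PBS replicate 2 and 1 by DESeq2), and Fcrls was kept. Fcrls had 32.5, 20.7 and 21.1 CPM in WT + PBS, 113, 71.8 and 86.8 CPM in WT + CBE, 29.7, 30.6 and 28.9 CPM in MyTrMaSt + PBS, and 112, 88.6, 101, 85.7 and 93.9 CPM in MyTrMaSt + CBE. Its responses were 1.93 ± 0.21 and 1.69 ± 0.18, with levels after CBE that overlapped. None of the 10 Fcγ receptor genes was called, with 10 DEGs in WT and 6 in MyTrMaSt.

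Of 15 complement genes, 12 were DEGs in WT and 8 in MyTrMaSt, all upward, with median responses of 2.90 and 1.59. All 15 estimates of the interaction were below 0 (median -0.93), 1 was called and 3 genes were kept. There were 3 calls without WT + PBS replicate 1, 2 without MyTrMaSt + CBE replicate 5 and 0 without MyTrMaSt + PBS replicate 1 or 3. The initiator subunits C1qa and C1qb and C4b, which C1 cleaves, were kept, and the protease C1ra was lost. C1qb had 222, 119 and 129.9 CPM in WT + PBS, 885, 777 and 909.9 CPM in WT + CBE, 96.3, 89.03 and 82.4 CPM in MyTrMaSt + PBS, and 426, 475, 413, 518 and 460.3 CPM in MyTrMaSt + CBE. The responses were 2.47 ± 0.19 and 2.36 ± 0.17, and the interval was -0.64 to 0.42. C1qa had responses of 2.58 ± 0.20 and 2.21 ± 0.18. After CBE both genes were lower in the null mice than in every WT library, and the linear rise was 52.7% and 44.4% of that in WT, so that kept here is a statement on the log2 scale. Without WT + PBS replicate 1, whose C1qa level of 322 CPM was above the 163 and 171 of the other 2, the interaction of C1qa was -0.75 and passed the test, which made it a reduced response. C4b had 34.3, 10.2 and 21.9 CPM in WT + PBS, 142, 150.2 and 159.7 CPM in WT + CBE, 9.67, 11.4 and 10.6 CPM in MyTrMaSt + PBS, and 71.7, 66.8, 83.5, 64.5 and 88.9 CPM in MyTrMaSt + CBE. Its responses were 2.899 ± 0.27 and 2.82 ± 0.26, and without WT + PBS replicate 1 it too was not bounded any more. C1ra was counted 13 to 39 times in WT + CBE and 2 to 4 times in MyTrMaSt + CBE (interaction -4.13 ± 0.81, adjusted p = 0.0120), and the call was lost without MyTrMaSt + PBS replicate 1 or 3. The estimate of C3, the central component, was -3.38 ± 0.79 and did not pass (adjusted p = 0.0705), although it did without WT + PBS replicate 1.

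Lysosomal genes encode the compartment in which the inhibited enzyme works. Of 42 tested, 17 were DEGs upward in WT and 11 in MyTrMaSt, all 11 of them in both, and the median interaction was -0.22. In it 6 of the 42 were kept, among them Gusb, Ctsd, Grn, Naglu and Cd63. The background of kept responses was 0.413%. Gusb (β-glucuronidase) had 9.02, 12.99 and 9.28 CPM in WT + PBS, 69.5, 66.6 and 62.7 CPM in WT + CBE, 12.1, 15.6 and 14.4 CPM in MyTrMaSt + PBS, and 81.8, 86.4, 87.9, 85.7 and 75.5 CPM in MyTrMaSt + CBE. Every MyTrMaSt + CBE library was above every WT + CBE library, the responses were 2.61 ± 0.19 and 2.56 ± 0.16, and the interval was -0.57 to 0.47. The aspartic protease Ctsd, with exons that overlap Gm49369 on the same strand, had 1209, 687 and 578 CPM in WT + PBS, 3886, 3531 and 3639 CPM in WT + CBE, 633, 594 and 519 CPM in MyTrMaSt + PBS, and 2884, 2704, 2497, 2569 and 3022 CPM in MyTrMaSt + CBE. The responses were 2.16 ± 0.20 and 2.23 ± 0.18, with an interval of -0.49 to 0.63. Grn (progranulin) rose by 2.37 ± 0.17 and 2.03 ± 0.15. Gusb, Ctsd and Cd63 stayed kept without WT + PBS replicate 1, with the Xist covariate and with libraries of 1 sex per genotype. Of the list, the cysteine proteases Ctss and Ctsc were reduced. Leaving out 1 library at a time gave 0 to 6 called interactions in the list in place of 2, the 6 without WT + PBS replicate 1. Ctss, which is made by microglia, had 120.03, 139.8 and 163 CPM in WT + PBS, 1040.5, 935 and 825 CPM in WT + CBE, 81.8, 89.3 and 128 CPM in MyTrMaSt + PBS, and 314, 261, 280.4, 268 and 333 CPM in MyTrMaSt + CBE. Its interaction was -1.18 ± 0.24 (adjusted p = 0.0291) and that of Ctsc -1.695 ± 0.35 (adjusted p = 0.0302). The call of Ctss was lost without WT + CBE replicates 1 or 2, MyTrMaSt + PBS replicate 3 or MyTrMaSt + CBE replicates 2, 3 or 4, and that of Ctsc without WT + PBS replicate 2, WT + CBE replicates 1 or 2, MyTrMaSt + PBS replicates 1, 2 or 3 or MyTrMaSt + CBE replicates 1, 2 or 3.

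Among the other kept genes, Mt1, a metallothionein, rose by 1.95 ± 0.18 in WT and by 1.79 ± 0.16 in MyTrMaSt, from a level that was among the highest of the named genes (2143, 1533 and 1207 CPM in WT + PBS, 1473, 1786 and 1601 in MyTrMaSt + PBS). Fkbp5, a target of the glucocorticoid receptor, had 52.3, 43.1 and 30.8 CPM in WT + PBS, 145, 142 and 142 CPM in WT + CBE, 24.5, 36.5 and 30.3 CPM in MyTrMaSt + PBS, and 106, 157, 94.02, 182 and 104 CPM in MyTrMaSt + CBE. The CBE libraries overlapped, and the responses were 1.79 ± 0.25 and 2.07 ± 0.22. The ferritin light chain Ftl1, Hcls1, Ptpn18 and Tnfaip8l2 were kept as well, with estimates of the interaction of -0.08, -0.24, -0.20 and 0.01. Over all 49 kept genes, 46 rose and 3 fell. The median response was 1.52 in WT and 1.33 in MyTrMaSt, and the median linear change in MyTrMaSt was 77.0% of that in WT, with 9 genes under 60%. After PBS, 38 of the 49 had an estimate that was lower in the null mice, and by edgeR none passed the threshold. After CBE the genotype difference passed it for 8 of the 49, against 2.54% of all tested genes. Of the 49, 38 were kept without WT + PBS replicate 1, 18 with the Xist covariate and 16 with libraries of 1 sex per genotype.

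Of 22 cholesterol synthesis genes, 8 were DEGs downward in WT and 5 in MyTrMaSt, with median responses of -0.94 and -0.67. No interaction passed the test, with 5 estimates below 0 (median 0.35). The 5 oligodendrocyte markers summed in WT to 14995 to 17947 CPM after PBS and 9329 to 11968 after CBE, and in MyTrMaSt to 15186 to 17942.5 after PBS and 11307 to 15275 after CBE, with a median interaction of 0.64 and none called. The part of this shift in the responses of the cholesterol synthesis, myelin and neuronal genes was not tested. Hmgcs1, which makes HMG-CoA, had 481, 369 and 472 CPM in WT + PBS, 169, 158 and 174 CPM in WT + CBE, 427, 404 and 424 CPM in MyTrMaSt + PBS, and 193, 181, 205, 254 and 182 CPM in MyTrMaSt + CBE. Its response was -1.400 ± 0.15 in WT and -1.04 ± 0.13 in MyTrMaSt, with an interval of the interaction of -0.07 to 0.78. Msmo1, a later enzyme of the pathway, was also kept (-1.21 ± 0.28 and -1.18 ± 0.23). Insig1, which holds the sterol sensor in the endoplasmic reticulum, had an estimate of 1.69 ± 0.70, which did not pass (adjusted p = 0.350), and its WT + PBS libraries spread from 11.1 to 54.1 CPM. No interaction was called among the 26 myelin and the 34 neuronal genes, with medians of -0.03 and 0.27 by edgeR. Of the neuronal genes, 3 were called without WT + PBS replicate 1 or 2 and 2 without replicate 3, and DESeq2 called 4, while none of the myelin genes was called in any of these fits. An interval within 1 log2 unit of 0 was found for 15 of the myelin and 13 of the neuronal genes, against 43.3% of all tested genes. By edgeR with all 14 libraries none was called among the immediate early (19 tested, median 0.23), stress response (17, -0.03) and cell cycle genes (13, -0.57). The same held for the cell death (10, -0.21), endothelial (18, -0.04), astrocyte identity (12, 0.10) and sterol efflux genes (16, -0.37). Of the stress response genes, 1 was called without WT + PBS replicate 1 or MyTrMaSt + CBE replicate 1, and 1 by DESeq2. DESeq2 also called 1 cell cycle gene, and the fit with the Xist covariate 1 sterol efflux gene. Top2a of the cell cycle list was called in 2 of 24 alternative fits, and Mylip of the sterol efflux list in 1 of 25. Of the 20 TGF-β genes only Tgfbi was called (-2.21 ± 0.47, adjusted p = 0.0409). It was called in 3 of the 14 leave-one-out fits, those without WT + PBS replicate 1, MyTrMaSt + PBS replicate 2 or MyTrMaSt + CBE replicate 4. Vamp2, a synaptic vesicle protein, had the lowest p of the neuronal list (1.51 ± 0.38, adjusted p = 0.129), and was called when any 1 of the 3 WT + PBS libraries was left out.

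**Figure D4:**
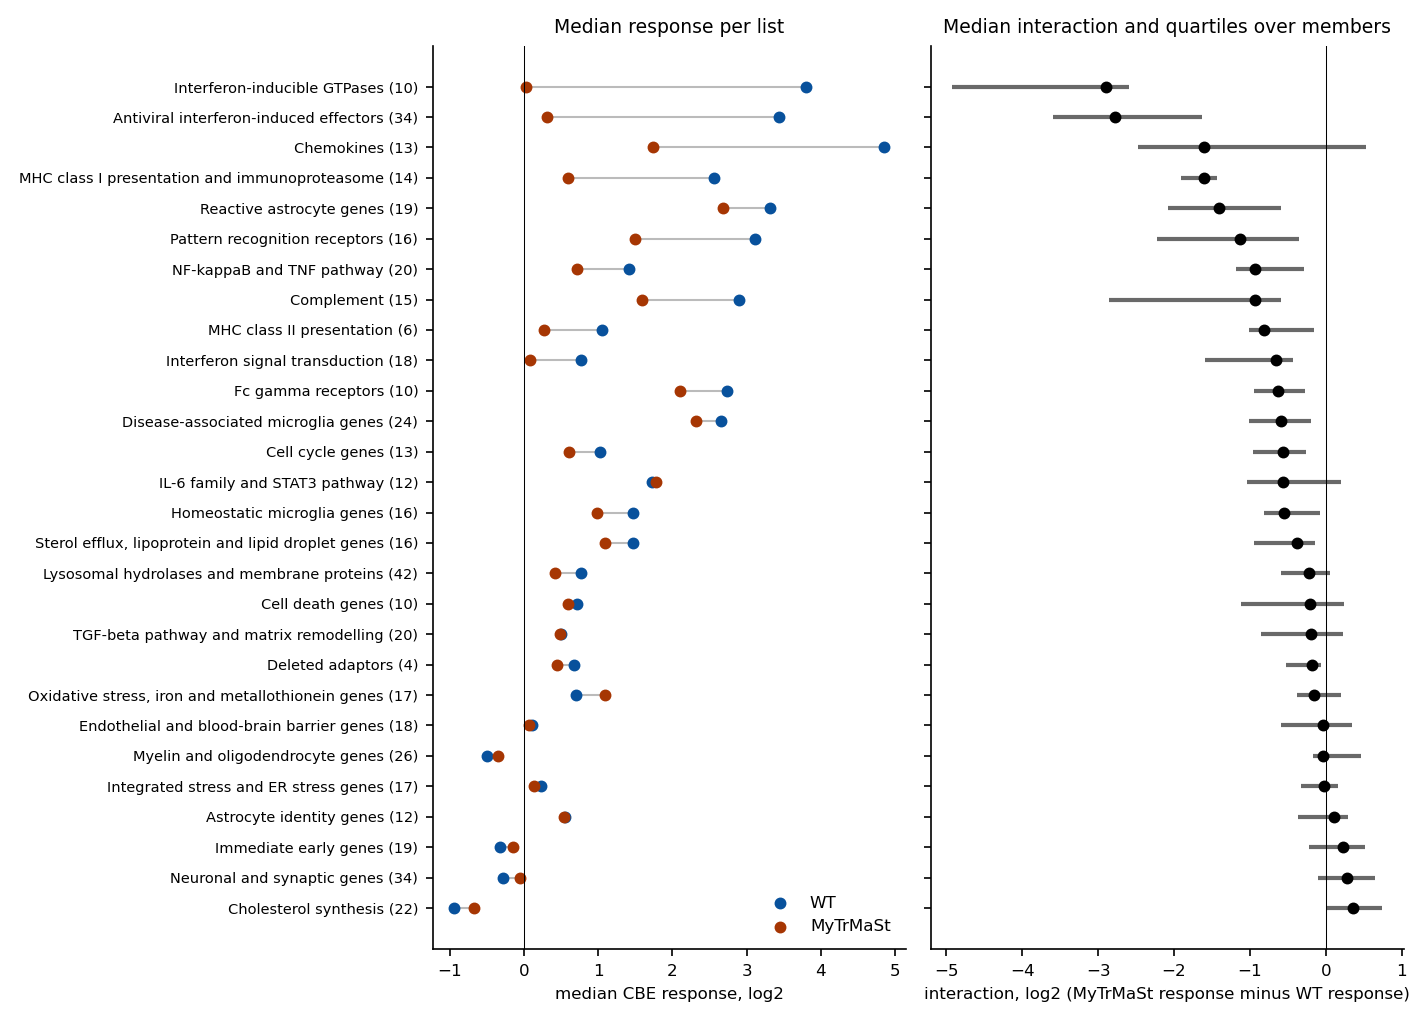
Left, the median CBE response (log2) of each gene list in WT (blue) and MyTrMaSt (brown), with the number of tested members in brackets; right, the median interaction of the members (point) with the lower and upper quartile (bar). The interferon-inducible GTPases (median interaction -2.89) and the antiviral effectors (-2.78) lie farthest below 0, and cholesterol synthesis (0.35) farthest above.

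Only 2 responses were gained, those of Islr2 and Meis3. Islr2, a neuronal surface protein whose exons overlap Islr on the same strand, had 117, 77.6 and 94.1 CPM in WT + PBS, 77.98, 88.7 and 57.2 CPM in WT + CBE, 33.5, 47.6 and 43.3 CPM in MyTrMaSt + PBS, and 84.6, 127, 91.2, 135 and 74.4 CPM in MyTrMaSt + CBE. The null mice were low after PBS and at WT levels after CBE, with a response of 1.300 ± 0.22 against -0.34 ± 0.24 in WT (interaction 1.64 ± 0.32, adjusted p = 0.0272). Meis3, a homeobox factor, had 51.4, 25.97 and 19.4 CPM in WT + PBS, 16.3, 24.9 and 23.5 CPM in WT + CBE, 10.01, 12.4 and 8.45 CPM in MyTrMaSt + PBS, and 20.3, 28.2, 32.4, 27.1 and 30.1 CPM in MyTrMaSt + CBE. Its interaction was 1.92 ± 0.41 (adjusted p = 0.0428). The other 7 positive genes were DEGs in neither genotype: Cdk5r2 (p39, an activator of Cdk5), Ncan (neurocan), Sncb (β-synuclein), Hpca (hippocalcin), Pip5k1c, Tmem121 and Zmiz2, with interactions of 0.95 to 1.30. Hpca, a calcium sensor of neurons, had 862, 595 and 492 CPM in WT + PBS, 526, 536 and 513 CPM in WT + CBE, 327, 393 and 272 CPM in MyTrMaSt + PBS, and 509, 793, 727, 627 and 613 CPM in MyTrMaSt + CBE. Its MyTrMaSt + PBS libraries were below every other library, and the interaction was 1.29 ± 0.27 (adjusted p = 0.0391). Cdk5r2 had 966, 719.5 and 802 CPM in WT + PBS, 429.7, 474 and 468 CPM in WT + CBE, 415, 419 and 462 CPM in MyTrMaSt + PBS, and 524, 660.2, 481, 567 and 409 CPM in MyTrMaSt + CBE. Here WT fell by 0.86 on the log2 scale (adjusted p = 0.00184), and the estimate in MyTrMaSt was 0.29 ± 0.15.

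All 9 positive genes had a genotype difference (log2 of MyTrMaSt over WT) below 0 after PBS, from -1.54 to -0.75, and above 0 after CBE, from 0.15 to 0.51. The difference after PBS had an adjusted p below 0.05 for 4 of them, against 22 of all genes (0.186%), and that after CBE for none (edgeR). These genes were chosen by the interaction, which includes the difference after PBS, so this share is set in part by that choice. They had GC-rich 3′ ends: the last 500 bases of the transcript had a median GC content of 55%, against 44.2% over all tested genes, 46% for the negative and 51% for the kept genes. The part of base composition in these interactions was not tested. None of the 9 was called in all 14 leave-one-out fits, and none with the Xist covariate, with libraries of 1 sex per genotype or with the replicate number as a block. All 9 were called without WT + PBS replicate 1.

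The interaction is also the genotype difference after CBE minus that after PBS, so the direction of the shift between them is set by how the called genes were chosen. For the 49 negative genes the median difference was -0.40 after PBS and -2.99 after CBE, as a description. After PBS 3 of them had an adjusted p below 0.05 and after CBE all 49, where 301 of all genes had one (2.54%). As the interaction holds both differences, these counts are set in part by how the genes were chosen and are no separate result. For the lists, the median difference of the antiviral effectors was -0.76 after PBS and -3.28 after CBE, that of the GTPases -0.06 and -4.18, and that of the lysosomal genes -0.00 and -0.30.

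**Figure D5:**
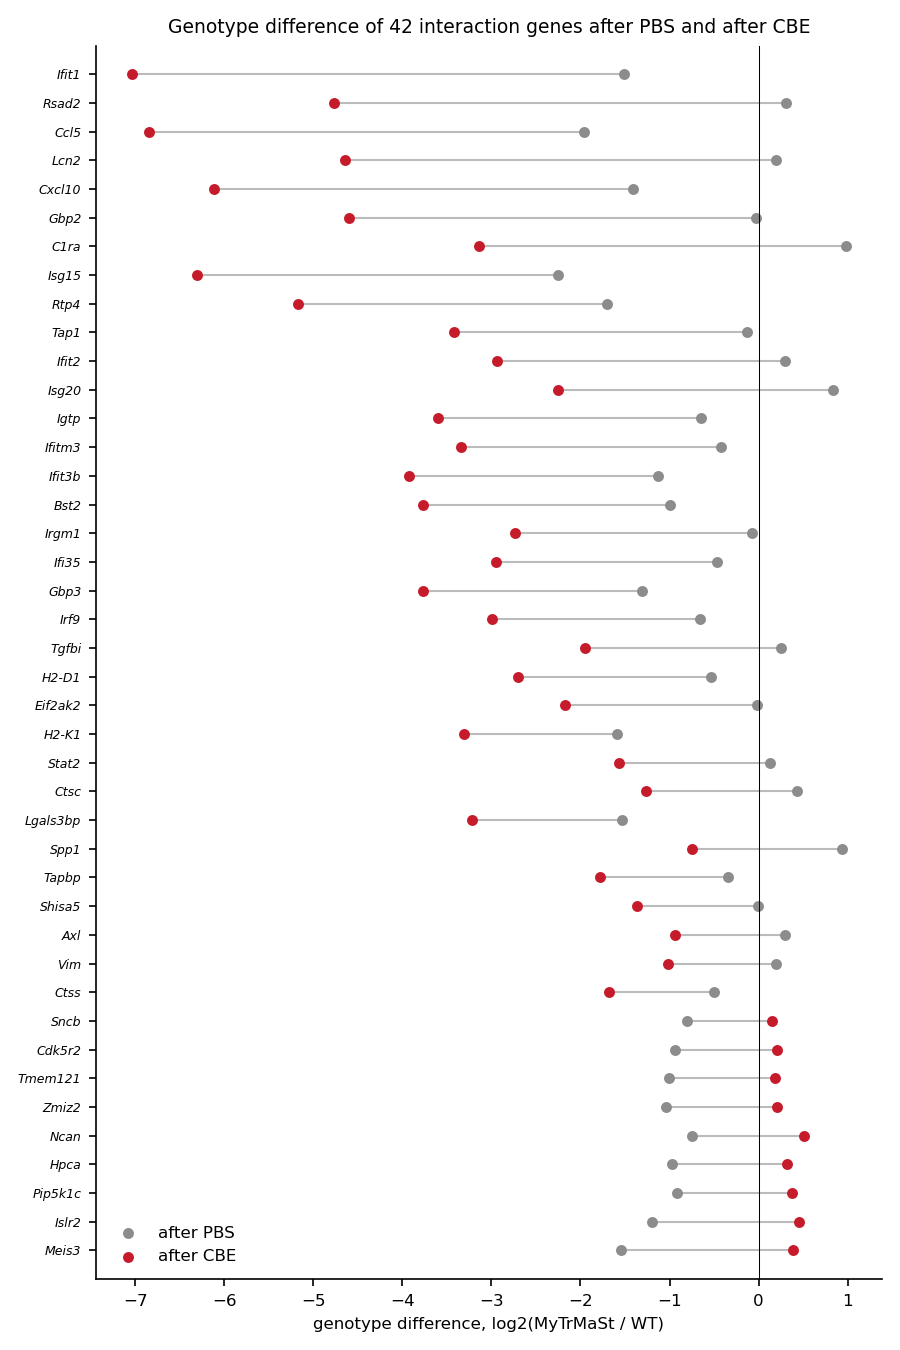
Genotype difference (log2 of MyTrMaSt over WT) of the 42 called genes that were named by rule, after PBS (grey) and after CBE (red), ordered by the interaction. The red points of the 33 negative genes lie to the left of the grey ones, those of the 9 positive genes, at the bottom, to the right and near 0, as the choice of the genes by the interaction sets.

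For the 813 DEGs that were neither called nor bounded, the interval had a median width of 2.02 log2 units, against 1.25 for the kept genes. They were DEGs in both genotypes in 245 cases, in WT alone in 416 and in MyTrMaSt alone in 152, and none of the differences reached the edgeR adjusted threshold. The unadjusted p was below 0.05 for 329 of them, and DESeq2 called 40 of the 813 lost, reduced or gained. Over all 11852 genes the estimate was below 0 in 5934, and a set with more DEGs of WT alone favours such values. Of the 813, it was below 0 in 550. Usp18, a protease that removes ISG15 and was chosen after its values were seen, was among these with 2.71, 1.93 and 2.53 CPM in WT + PBS, 56.4, 33.3 and 58.4 CPM in WT + CBE, 0, 0.528 and 0.704 CPM in MyTrMaSt + PBS, and 0.3896, 0, 0.811, 0 and 0.391 CPM in MyTrMaSt + CBE. Its estimate was -4.74 ± 1.15 (adjusted p = 0.139), with at most 2 counts in any MyTrMaSt library.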

How the data were processed

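Brain RNA of 14 mice was sequenced as 3′ libraries (MARSseq), and the reads were trimmed, aligned to mm10 and counted per gene by the authors (cutadapt, hisat and HTSeq, per the labels and the study's methods). The annotation, the strand setting and the use of molecular identifiers are not given in the sources used here. The deposited raw counts were used. The authors' normalized values, fold changes and p-values were not used. Labels do not say whether mice shared a litter, so p-values measure the spread between these mice. The 22 gene names that read as dates were kept as listed and not named.

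The analysis used edgeR 4.0.16 under R 4.3.3: filterByExpr left 11852 of 13866 genes, libraries were scaled by TMM, and 1 quasi-likelihood model over the 4 groups gave both responses, the interaction and the genotype differences, with Benjamini-Hochberg adjustment over all tested genes. CPM were taken from the TMM-scaled library sizes. SE and 95% intervals come from the model. Where a group had 0 counts in every library, its fold was also taken as a bound against a floor of 3 counts over the group. The members, gene lists and tests were chosen with earlier results of these data known. Genes were named by a rule: all positive called genes, the 25 negative ones with the lowest p, the 15 kept ones with the largest mean absolute response, in each list the 2 members with the lowest p and the 2 kept members with the largest response, and the deleted genes and Xist; others are members counted in a list or said to be chosen after their values were seen. Scripts were tested on simulated data. Alternatives were other scalings and filters, DESeq2 1.42.0, limma 3.58.1 voom with weights, a replicate block, an Xist covariate, a robust fit, an adjusted p below 0.1, and leaving out each library. Leaving out WT + PBS replicate 1 together with the covariate, and 1 sex per genotype, were added after seeing the data.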

Additional observations from a re-analysis of the deposited data

Results flagged for a closer look

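The response to CBE differed between WT and MyTrMaSt mice for 58 genes by the test of the difference itself, the interaction term of the edgeR model at an adjusted p below 0.05. Of the genes named by rule, those with a smaller response in MyTrMaSt had these interactions (log2): H2-D1 -2.16, Bst2 -2.76, Tap1 -3.29, Gbp2 -4.56, Shisa5 -1.37, Ifit2 -3.23, Ifit1 -5.53, Ccl5 -4.89, Rtp4 -3.48, Irf9 -2.33, Tapbp -1.44, Spp1 -1.68, Irgm1 -2.65, Ifit3b -2.80, Isg20 -3.09, Igtp -2.95, Stat2 -1.70, H2-K1 -1.72, Ifi35 -2.48, Ifitm3 -2.91, Lgals3bp -1.68, Gbp3 -2.46, Lcn2 -4.84, Rsad2 -5.08, Isg15 -4.05, Cxcl10 -4.70, Eif2ak2 -2.15, C1ra -4.13, Vim -1.21, Axl -1.23, Ctss -1.18, Ctsc -1.70, Tgfbi -2.21. Those with a more positive response had these: Cdk5r2 1.15, Ncan 1.26, Islr2 1.64, Sncb 0.95, Pip5k1c 1.30, Hpca 1.29, Tmem121 1.20, Zmiz2 1.24, Meis3 1.92.

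Among the 5 MyTrMaSt + CBE libraries, 1 library lay far from the other 4 in 5 of the 98 named genes, by Dixon's test at the 95% level: Tap1 at 14.5 CPM, Rtp4 at 7.40 CPM, Tgfbi at 15.3 CPM, Ifih1 at 2.73 CPM and Apln at 35.9 CPM. Chance flags about 1 in 20 groups, and only this group of 5 was large enough to be examined. Of the called ones, Rtp4 and Tap1 were called in all 14 leave-one-out fits and Tgfbi in 3.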

How the results depend on the processing

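Of the 58 interactions, the 49 negative and 9 positive ones, the 49 lost or reduced, 49 kept and 2 gained responses, all counts stayed within 1.5 times of these under other scaling factors, no filter and the robust fit. DESeq2 called 133 (85 negative, 48 positive), with 89 lost or reduced and 4 gained, and limma voom with sample weights 145 (108 and 37), with 106 and 5. With at least 10 counts in every library, 18 were called (16 and 2), with 16 lost or reduced and 0 gained. Of the 58 genes, 26 were then tested, 8 of which lost their call. With the Xist covariate 9 were called (8 and 1), with 9 lost or reduced, 21 kept and 0 gained, and with libraries of 1 sex per genotype 12 (9 and 3), with 12, 20 and 0. In that last fit the lone WT + CBE library is assumed to vary like the other groups. At an adjusted p below 0.1, 19 positive genes were called. With the covariate but without WT + PBS replicate 1, 65 were called, 38 of the 58 (0 of the 9 positive) among them, and 23 of the 49 kept genes stayed kept. The cause of these changes was not tested. The 58 called genes kept their sign wherever they were tested, while kept genes with estimates near 0 took either sign, such as Gfap (-0.64 to 0.33) and Ctsd (-0.31 to 0.27).

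Leaving out 1 library at a time gave 24 to 105 interactions (23 to 81 negative, 0 to 37 positive), 23 to 80 lost or reduced, 38 to 69 kept and 0 to 3 gained responses.

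With the replicate number as a block, 32 interactions were called (32 negative, 0 positive), with 32 lost or reduced, 40 kept and 0 gained. Deviations of libraries with the same number correlated between -0.172 and 0.165, so the numbers were not taken to pair the mice.

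With 3 to 5 libraries per group and a median count of 29 to 107 per gene, genes with few counts in a group carry wide intervals. Sex is partly confounded with genotype and treatment, as no WT + PBS library had Xist counts and the MyTrMaSt + PBS libraries held 1 Y-linked count in all.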
